A study of Mus musculus with 23 samples.

Results

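Spleen tumors of IL6Myc mice were compared with splenic B cells stimulated with bacterial lipopolysaccharide (LPS), so that populations of the B lineage from the same organ stood against each other. The comparison took every library whose labels give IL6Myc genotype and spleen, 7 in all, and every library of LPS-stimulated cells, 5 in all. These were 12 of the 23 libraries of the series, a bulk RNA sequencing study of IL6Myc mice as an immunocompetent model of multiple myeloma. The tumor libraries are labelled malignant plasma cells, received no treatment and are named here by the number of their mouse, 1610 to 1616, with 1 spleen tumor per mouse. The activated libraries came from wild-type Balb/c mice, whose B cells were given 1 µg/ml LPS for 16 hours after isolation.

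All 12 samples had passed through magnetic beads that remove cells of other lineages and leave B cells behind, so both groups carry the same enrichment step. The sources used here do not state the strain background of the IL6Myc mice, the promoters of their transgenes, or the age and sex of any animal. The labels do not say whether the 5 activated libraries came from separate animals, so for them the p-values may measure only technical spread. LPS and the hours in culture cannot be told apart, since no cultured but unstimulated cells entered the comparison.

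Resting B cells that meet LPS through Toll-like receptor 4 switch on NF-kB, enlarge, take up glucose, build membranes and nucleotides, and enter the cell cycle. Plasma cells are the end stage of this lineage: they lose most B cell surface proteins, expand the endoplasmic reticulum and secrete antibody. IL-6 is a growth factor for plasma cells that signals through JAK kinases and STAT transcription factors, whose targets include the inhibitors CISH and the SOCS proteins. MYC is a transcription factor for growth genes, and its activation by chromosomal change is a common event in plasma cell tumors.

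The promoters of 3 genes that fell in the tumors are shown because each carries a match to a motif tied to one of these programs. The windows are RefSeq promoters of mouse build GRCm38.p6, from 250 bases before the start of transcription to 50 after it, read 5′ to 3′ on the plus strand with motif matches in capitals. The Cish window, chr9:107296409-107296708, holds 2 matches to the STAT motif TTCNNNGAA directly at the start site. The Hmgcs1 window, chr13:119690101-119690400, holds 1 match to TCACNCCAC, a sterol response element, a motif that was added to the search after the values were seen. The Ldha window, chr7:46845554-46845853, holds 2 matches to the E-box CACGTG, a motif shared by MYC and hypoxia-inducible factors.
Cish: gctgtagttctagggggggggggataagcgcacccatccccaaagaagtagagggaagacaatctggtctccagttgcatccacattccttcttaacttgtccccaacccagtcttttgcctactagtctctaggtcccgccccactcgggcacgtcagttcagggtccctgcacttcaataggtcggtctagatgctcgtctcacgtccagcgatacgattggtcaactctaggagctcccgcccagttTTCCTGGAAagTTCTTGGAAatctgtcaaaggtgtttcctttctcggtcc
Hmgcs1: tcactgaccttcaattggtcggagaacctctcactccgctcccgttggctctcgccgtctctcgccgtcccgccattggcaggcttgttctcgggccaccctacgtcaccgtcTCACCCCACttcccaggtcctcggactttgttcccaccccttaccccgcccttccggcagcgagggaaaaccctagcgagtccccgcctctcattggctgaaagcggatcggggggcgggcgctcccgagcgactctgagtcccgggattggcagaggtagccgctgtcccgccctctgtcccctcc
Ldha: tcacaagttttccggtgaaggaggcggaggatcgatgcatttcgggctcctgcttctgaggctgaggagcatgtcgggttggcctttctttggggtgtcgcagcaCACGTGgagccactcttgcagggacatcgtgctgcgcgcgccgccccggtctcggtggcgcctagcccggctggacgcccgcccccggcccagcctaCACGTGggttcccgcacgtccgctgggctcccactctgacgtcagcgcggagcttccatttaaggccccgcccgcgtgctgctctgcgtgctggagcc

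Both strands were searched in the promoters of 27025 genes. The STAT motif was present in 9.55% of them, the E-box in 8.09% and the sterol motif in 1.44%. Of the genes on the lists described below, 3 of 26 STAT and cytokine genes (11.5%) held the STAT motif, 11 of 38 MYC targets (28.9%) held the E-box, 4 of 27 glycolysis genes (14.8%) held the E-box, and 1 of 20 cholesterol genes (5.0%) held the sterol motif. The E-box was also in 5 of 20 cholesterol genes, 4 of 42 folding and secretion genes and 2 of 26 STAT and cytokine genes. The sterol motif was in 2 of 27 glycolysis, 2 of 42 secretion, 0 of 38 MYC and 0 of 26 STAT genes. The STAT motif was in 5 of 42 secretion, 3 of 38 MYC, 2 of 27 glycolysis and 0 of 20 cholesterol genes. TGACGTG, a folding stress motif also searched, was in 2.22% of all promoters. It was in 4 of 42 secretion, 3 of 27 glycolysis and 0 of 20 cholesterol genes. A match describes the letters in the window and does not show that a factor binds there. The windows of SOCS1, NFIL3, IL2RA and IL6 held no STAT motif, those of IDI1 and LSS no sterol motif, and a second RefSeq window of Ldha no E-box.

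The authors' table is named as TPM, but its library totals differ and far exceed the fixed total of TPM, so its values were read as estimated counts. Whether they were scaled for transcript length is not stated, and every CPM and test below rests on this reading. Estimated counts per library totalled 13328866 to 20091467 in the tumors and 20194017 to 25045814 in activated cells. A gene was tested when it reached 1 CPM (counts scaled to library size with TMM factors) in at least 4 of the 12 libraries, which left 11038 genes. At an adjusted p of 0.05 (edgeR quasi-likelihood test, Benjamini-Hochberg), 4398 genes differed, or 39.8%. Of all genes tested, 23.9% were higher in the tumors (2634 genes) and 16.0% were lower (1764 genes). The change was at least 2-fold for 2093 of the higher and 442 of the lower genes. For 28.3% of the genes the 7 tumors and the 5 activated libraries did not overlap at all, whether called or not. The naming rule took the greatest rises and falls and the called list members only from such genes. For genes named by it, a lack of overlap is no separate result. The median log2 change over all genes was 0.06, and list medians below are to be read against it. The split depended on the scaling: of the genes called, 59.9% were higher here and 31.8% with quantile normalization (fitted with limma-voom, here and below), which set the median of all genes at -0.13. Of 157 calls of single genes that were followed, 50 ended with quantile normalization, 17 with limma at a pseudocount of 5 and 30 with a 2-fold minimum.

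**Figure D1:**
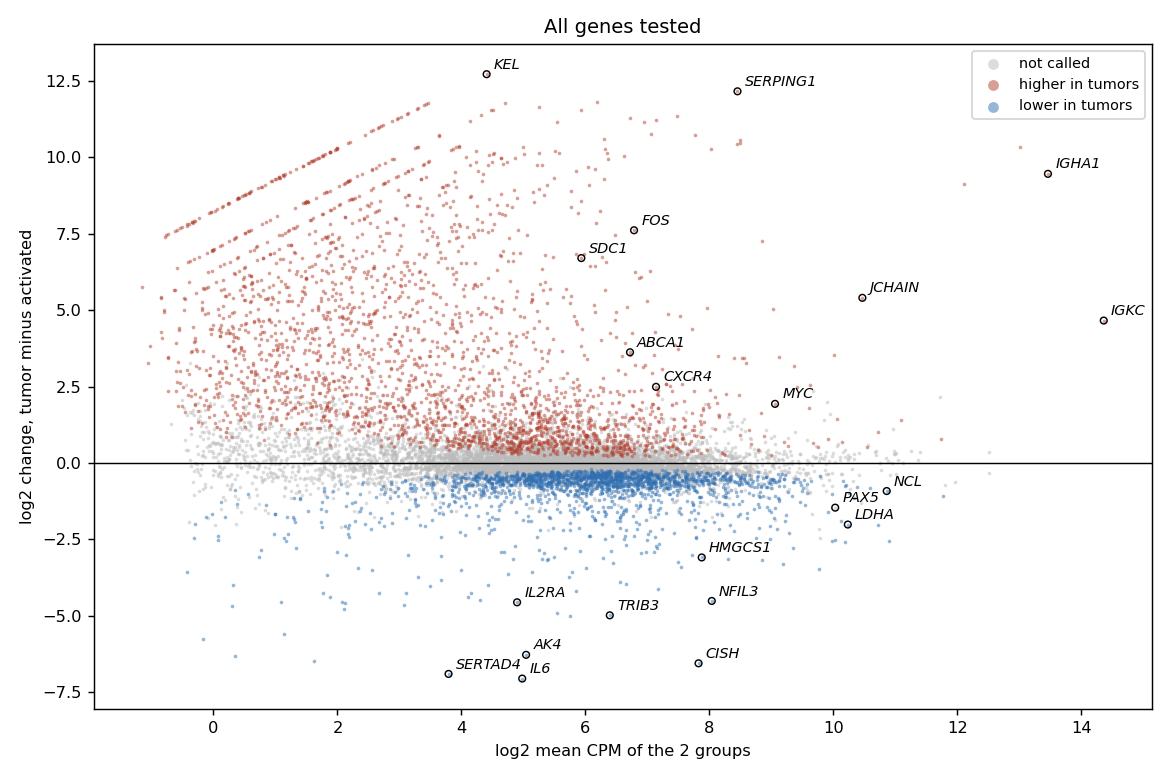
Each point is 1 of the 11038 genes tested, with the log2 of the mean CPM of both groups on the horizontal axis and the log2 change (tumor minus activated) on the vertical axis. Red genes passed an adjusted p of 0.05 as higher, blue genes as lower and grey genes did not pass. Rises reach far greater folds than falls, and the sloping lines at upper left are genes with 0 or very few counts in the activated libraries.

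The tumors were far less alike than the activated libraries. The median coefficient of variation of a gene was 35.2% over the tumors and 8.08% over the activated libraries, and the lowest correlation of log2(CPM + 1) between 2 libraries was 0.747 among tumors and 0.994 among activated cells. Immunoglobulin genes took 1.03% to 1.66% of the counts in tumors 1610, 1612 and 1615, 4.95% in 1613, 6.97% in 1614, and 17.5% and 18.2% in 1611 and 1616. In the activated libraries the share was 0.69% to 0.844%. The summed CPM of 6 B cell markers (among them CD79A, CD79B, MS4A1, PAX5 and CD22) ran the other way: 152 in tumor 1611, 409 in 1616, 808 in 1614, 5317 in 1613, and 8929, 7587 and 7784 in 1610, 1612 and 1615, against 7451 to 8265 in activated cells. So in 3 libraries labelled malignant plasma cells, 1610, 1612 and 1615, the sum of these markers was at the level of activated cells. Of the single markers, PAX5 and MS4A1 were lower in every tumor than in any activated library. The same 3 libraries had the lowest immunoglobulin shares of the tumors, though above those of all activated libraries. Where a list's count of called members moved by more than 1.5 times in an alternative analysis, the range over all alternatives or the counts themselves are given with it below. The alternative without 1610, 1612 and 1615 was chosen from the immunoglobulin shares given here. Its counts describe the other tumors and are no separate test of plasma cell, secretion or B cell genes.

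Markers of other cell types also separated the groups, and their counts stand beside the 23.9% of all genes that were higher. All 18 macrophage genes tested were higher in the tumors, with a summed level of 437 to 5809 CPM against 27.8 to 48.3 in activated cells. All 11 neutrophil genes were higher (14.9 to 2518 against 7.16 to 10.7), as were 13 of 14 erythroid genes (196 to 6018 against 54.4 to 67.4), 11 of 15 T cell genes (52.8 to 302.1 against 79.7 to 97.6) and all 7 NK cell genes (25.2 to 83.0 against 3.79 to 5.31). These counts depended on the scaling: with quantile normalization 8 macrophage, 0 neutrophil, 3 erythroid, 2 T cell and 2 NK cell genes passed as higher. At an unadjusted p of 0.05 that fit had 0 of 11 neutrophil genes, although all 11 had positive changes in it, and DESeq2 called all 11. With limma at a pseudocount of 5, 6 neutrophil, 7 T cell and 3 NK cell genes passed. A marker near 0 in activated cells could meet the filter only through the tumors, so its call as higher was largely fixed beforehand. Of the markers with values, 7 of 11 NK cell and 15 of 22 T cell genes were tested. For such markers the counts beside 23.9% of all genes are a description and no test. Macrophage sums were highest in tumors 1614, 1613 and 1611 and lowest in 1610 and 1615. These cells are counted in every change below, and in bulk RNA fewer cells of a type cannot be told apart from less RNA per cell.

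**Figure D2:**
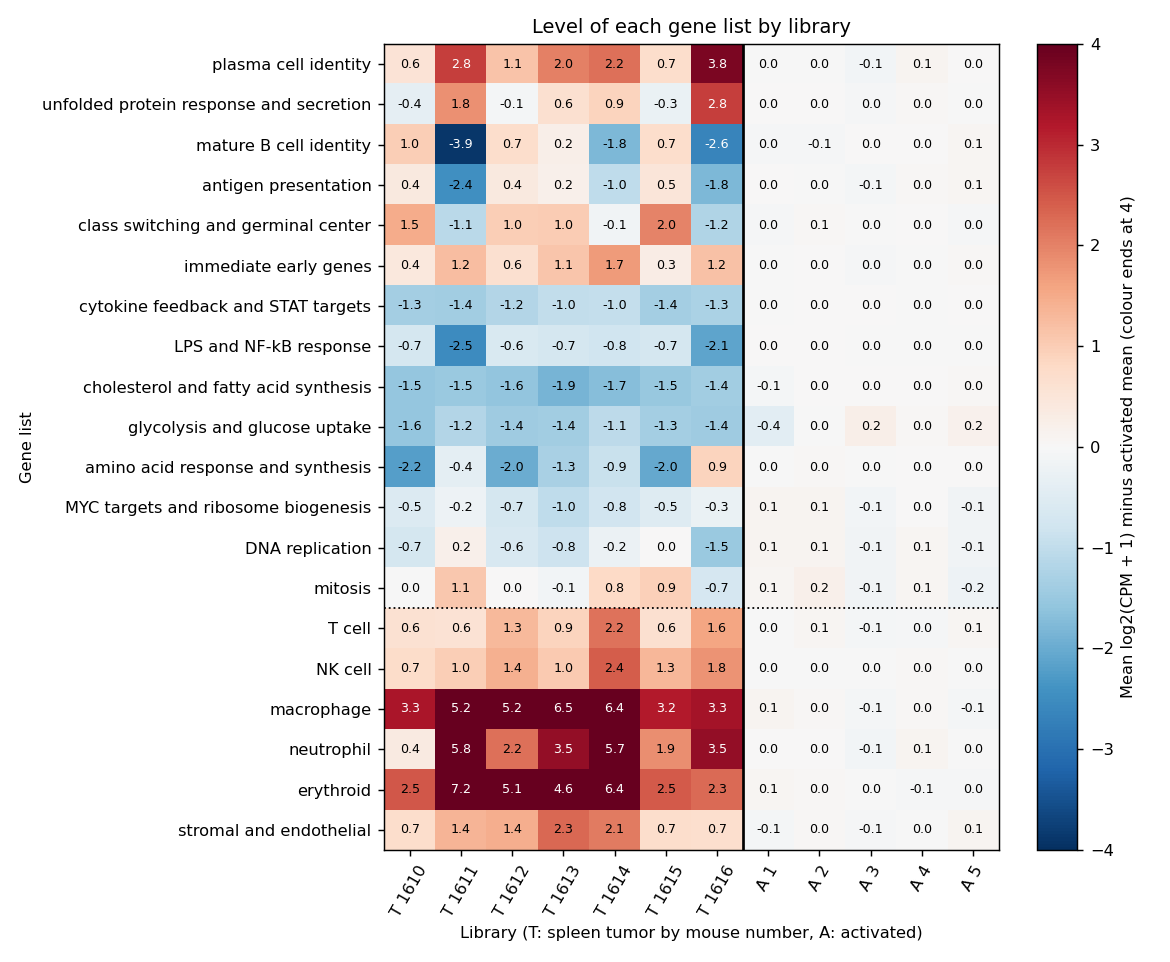
Rows are gene lists and columns are libraries, with spleen tumors by mouse number at left and activated libraries at right. Each cell gives the mean log2(CPM + 1) of the list's members minus its mean over the 5 activated libraries. The activated libraries stay close to 0, the STAT, cholesterol and glycolysis rows are negative in all 7 tumors, and the plasma cell, mature B cell and other cell type rows vary between tumors.

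The genes named in the model were read first. IL6, the plasma cell growth factor, was at 0, 0.432 and 1.5 CPM in the tumors (here and below the lowest, the median and the highest of 7) and at 73.7, 65.3, 58.7, 65.8 and 49.6 CPM in the activated libraries. The groups were far apart, and IL6 had the greatest fall of any gene named here, with a log2 change of -7.05 ± 0.67 (SE; adjusted p 2.6e-05, edgeR quasi-likelihood test) and -7.80 without tumor 1614. The sources used here do not say whether the table counts RNA from the IL6 or MYC transgenes. MYC was at 317, 499.6 and 2273 CPM in the tumors and 218, 230.1, 219, 228 and 212 CPM in activated cells. Every tumor lay above every activated library, and tumors 1616 and 1611 were the highest, for a rise of 1.93 ± 0.48 (adjusted p 0.0076). In 4 quiescent B cell libraries of the same series, scaled together with these 12, MYC was at 64 to 78.8 CPM, below all tumors and all activated libraries.

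Of 34 cytokine feedback and STAT target genes tested, 14 were lower (41.2%, against 16.0% of all genes), with a median log2 change of -0.47. The 1 higher member (2.9%, against 23.9%) was IL6R, a subunit of the IL-6 receptor (2.17 ± 0.51). Higher members numbered 5 without tumor 1611, 3 without 1610 or 1615, and 5 without tumors 1610, 1612 and 1615, and 1 to 5 over all alternatives. The call of IL6R ended with quantile normalization (adjusted p 0.0609). The count of lower members was 13 to 15 in every alternative analysis except that with a 2-fold minimum, where it was 11. CISH, an inhibitor that docks on cytokine receptors and blocks STAT5, was at 1.62, 3.69 and 9.17 CPM in the tumors and 481, 452, 422, 448 and 443 CPM in activated cells. Even the highest tumor, 1611, lay far below the lowest activated library, and the change was -6.55 ± 0.45 (adjusted p 3.7e-06). Quiescent cells held 0.393 to 1.93 CPM, so 5 of 7 tumors were slightly above all quiescent libraries and the activated cells were the group that stood apart.

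NFIL3, a transcription repressor induced by cytokines, was at 6.39, 23.6 and 42.7 CPM in tumors and 489, 501, 511, 495 and 524 CPM in activated cells. It changed by -4.51 ± 0.36 (adjusted p 9.9e-06), with no overlap, while all 7 tumors stayed above the quiescent range of 1.83 to 2.9 CPM. SOCS1, which binds JAK kinases and shuts them off, was at 9.59, 13.6 and 25.1 CPM against 144, 133, 125, 142 and 154 CPM, a change of -3.12 ± 0.23. SOCS2 showed a smaller fall (-1.74 ± 0.34, adjusted p 0.0022). SOCS3, the family member most closely tied to IL-6 signaling, did not pass the test: it was at 28.8, 55.1 and 138 CPM in tumors and 87.2 to 102 CPM in activated cells, and the groups overlapped (-0.51 ± 0.34, adjusted p 0.25).

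IL2RA, the alpha chain of the IL-2 receptor and a marker of lymphocyte activation, was at 1.19, 2.54 and 3.89 CPM against 50.1, 61.6, 60.4, 56 and 57.6 CPM. Its log2 change of -4.56 ± 0.27 (adjusted p 2.8e-06) came with no overlap. Against the quiescent range of 2.44 to 4.71 CPM, 4 of 7 tumors were within it and 3 below it. PIM1, a survival kinase and STAT target, had overlapping groups (83.7, 148 and 768 CPM against 742 to 808 CPM), and its call (-1.46 ± 0.53, adjusted p 0.044) ended without tumor 1610, 1612, 1613, 1614 or 1615 or activated library 1, 2, 3, 4 or 5 (adjusted p 0.0586 to 0.0892). The STAT inhibitor phosphatase PTPN6 (-0.25 ± 0.57) and the survival gene MCL1 (0.30 ± 0.15) did not pass.

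Genes whose level followed CISH most closely over all 23 libraries of the series were TRIB3 (Pearson r of log2 CPM 0.962), IL6 (0.961), FBXW7 (0.958), AUH (0.956), CLIC4 (0.955) and ATF4 (0.953). These libraries share their groups, so the values describe a pattern across tumors, activated and quiescent cells.

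**Figure D3:**
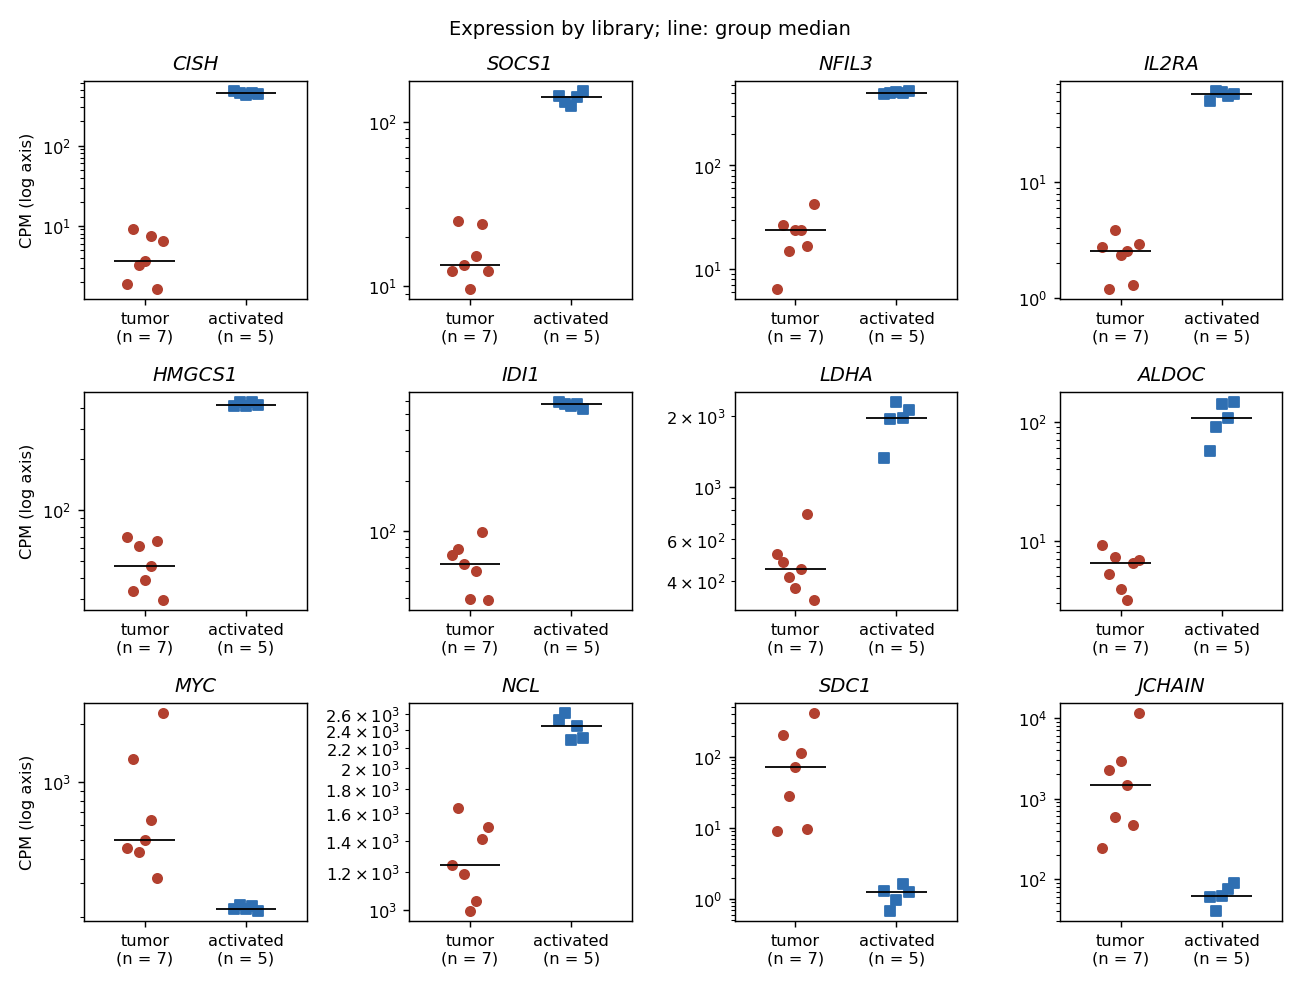
CPM of 12 genes in each of the 7 spleen tumors (red circles) and 5 activated libraries (blue squares), on log axes, with a line at each group's median. The groups do not overlap for any of the 12 genes. The fall of CISH, NFIL3, IL2RA and HMGCS1 is shared by all tumors, while SDC1 and JCHAIN differ widely among the tumors.

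Of 43 LPS and NF-kB response genes tested, 15 were lower (34.9%, against 16.0% of all genes) and 4 were higher (9.3%, against 23.9%). The median log2 change was -0.72. Without tumors 1610, 1612 and 1615, 22 were lower. CCL22, a chemokine that draws T cells to activated B cells, was at 0.251, 2.1 and 9.71 CPM in tumors and 114, 124, 72.6, 81.9 and 56 CPM in activated cells. All tumors were below all activated libraries, and the change was -4.92 ± 0.74 (adjusted p 0.00048; -5.52 without tumor 1613). BCL2A1, an NF-kB target of the BCL2 family that protects from cell death, was at 1.73, 18.2 and 28.4 CPM against 288, 299.6, 263, 252 and 254 CPM and changed by -4.12 ± 0.61 (adjusted p 0.00043). Tumors 1611 and 1616 were the lowest.

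CD69, an early activation marker, was at 2.2, 20.4 and 27.7 CPM against 146 to 162 CPM (-3.26 ± 0.50, adjusted p 0.00055), and BIRC3, an inhibitor of apoptosis induced by NF-kB, at 40.3, 186 and 278 CPM against 403 to 443 CPM (-1.36 ± 0.36, adjusted p 0.011). CD83, which holds MHC class II at the cell surface, was at 8.29, 394 and 593 CPM against 1380.2 to 1484 CPM with no overlap, but the tumors differed widely and it did not pass (-2.17 ± 0.86, adjusted p 0.063). It passed in 6 alternative analyses, DESeq2 and the limma fits among them. The 4 higher members, of which 2 passed without any 1 of the 5 activated libraries, with quantile normalization or in the limma fits, were LTB, GADD45B, CD14 and IL1B. CD14, an LPS co-receptor of monocytes, changed by 7.14 ± 1.10 (6.497 without tumor 1614) and IL1B, an inflammatory cytokine of the same cells, by 7.63 ± 1.24 (6.28 without tumor 1614). Both were highest in tumor 1614, where the macrophage sum was highest too, and the part of macrophages in these rises was not tested. The calls of LTB and GADD45B ended without single libraries: for LTB the call ended without tumor 1610, 1612, 1613 or 1615 or activated library 1, 2, 3, 4 or 5 (adjusted p 0.0612 to 0.0978), and for GADD45B it ended without tumor 1611, 1614 or 1616 or activated library 1, 2, 3, 4 or 5 (adjusted p 0.0589 to 0.0969).

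Among the genes with the greatest falls, TNFRSF8 (CD30, an activation receptor of the TNF family) was at 0.216, 3.69 and 7.21 CPM against 104, 125, 104, 104 and 86.4 CPM and changed by -5.00 ± 0.64 (adjusted p 0.00021). SERTAD4 was at 0.0454, 0.102 and 0.649 CPM against 29.6, 28.6, 24.8, 25.8 and 28 CPM, a change of -6.90 ± 0.59 (adjusted p 1.3e-05). AK4, a mitochondrial adenylate kinase, was at 0.108, 0.817 and 1.76 CPM against 30.3, 73.8, 95.5, 54.8 and 70.9 CPM and changed by -6.28 ± 0.56 (adjusted p 1.6e-05). Lack of overlap was a condition for naming these 3 genes and is no separate result.

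Of the 24 gene lists, cholesterol and fatty acid synthesis had the highest share of lower members. Of 29 genes tested, 25 were lower (86.2%, against 16.0% of all genes) and the median log2 change was -1.86. The number lower was 24 or 25 in every alternative analysis, those without 1 library or without tumors 1610, 1612 and 1615 included. HMGCS1, which makes the first committed precursor of the sterol pathway and whose promoter is printed above, was at 29.5, 47.3 and 69.5 CPM in tumors and 412, 433, 412, 434 and 414 CPM in activated cells. It changed by -3.09 ± 0.22 (adjusted p 4.5e-06). Its quiescent level was 52.2 to 57.8 CPM, so 3 tumors were above and 4 below all quiescent libraries.

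IDI1, the isomerase that readies isoprene units for condensation, was at 38.5, 63.9 and 99.1 CPM against 592, 572, 558, 574 and 538 CPM and changed by -3.15 ± 0.22 (adjusted p 4.7e-06). LSS, which closes the sterol ring system, was at 17.6, 29.6 and 38.7 CPM against 153, 248, 209, 214 and 233 CPM and changed by -2.94 ± 0.20 (adjusted p 3.7e-06). For both genes even the highest tumor was below the lowest activated library, which the naming rule required of them. ELOVL6, a fatty acid elongase, and SCAP, the sensor that escorts SREBP factors, were the 2 members that did not pass (-0.17 ± 0.27 and -0.15 ± 0.13).

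Cholesterol export moved the other way. ABCA1, the pump that hands cholesterol to lipoproteins, was at 84.1, 199 and 341 CPM in tumors and 16, 16.1, 14.6, 17.3 and 15.2 CPM in activated cells, and it rose by 3.62 ± 0.33 (adjusted p 2e-05) with no overlap. Quiescent cells had 316 to 369.6 CPM, more than 6 of 7 tumors, and the activated libraries were the lowest of the 3 groups. ABCG1, a second exporter, rose by less (0.77 ± 0.26), and its call ended without tumor 1613 or 1614 or activated library 1, 2, 4 or 5 (adjusted p 0.0527 to 0.0851). It also ended with quantile normalization, in the limma fits and with a 2-fold minimum. These exporters were the 2 higher members of the list.

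Of 28 genes of glycolysis and glucose uptake, 19 were lower (67.9%, against 16.0% of all genes) and 3 higher (10.7%, against 23.9%). The median log2 change was -1.94, and 18 to 20 were lower in every alternative analysis. LDHA, which turns pyruvate into lactate, was at 331, 450.1 and 771 CPM in tumors and 1331, 1942, 2299, 1959 and 2129.8 CPM in activated cells. It changed by -2.01 ± 0.21 (adjusted p 5.4e-05) without overlap, the nearest tumor being 1615. All 7 tumors remained above the quiescent range of 208 to 222 CPM. HK2, the hexokinase induced in proliferating cells, was at 19.2, 24 and 40.0 CPM against 114, 153, 157, 155 and 145 CPM and changed by -2.39 ± 0.19 (adjusted p 9.7e-06).

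ALDOC, an aldolase, was at 3.13, 6.47 and 9.25 CPM against 56.9, 91.2, 143, 109 and 147 CPM and changed by -4.18 ± 0.31 (adjusted p 5.1e-06). ENO2, an enolase, changed by -4.24 ± 0.46, and TPI1, triose phosphate isomerase, by -2.78 ± 0.32. SLC2A1, the main glucose transporter, was at 24.6, 47.8 and 69 CPM against 136, 174, 222, 187 and 214 CPM (-2.01 ± 0.25, adjusted p 0.00016), and SLC16A3, the lactate exporter, changed by -3.72 ± 0.59 (-4.36 without tumor 1614). Activated library 1 was the lowest of its group for ALDOC, ENO2, TPI1, LDHA and SLC2A1, so this program varied among the controls as well.

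HK1, the constitutive hexokinase, and PFKFB3, a regulator of phosphofructokinase, did not pass (-0.14 ± 0.44 and -0.59 ± 0.38). The 3 higher members were HK3, a hexokinase of myeloid cells (8.77 ± 1.08; 9.96 without activated library 1), LDHB and PFKM. LDHB had 1 count in all activated libraries together, and its ratio to the tumors has a counting interval of 108 to 23997. The call of PFKM ended without tumor 1611 or 1614 or activated library 1, 2, 3, 4 or 5 (adjusted p 0.0614 to 0.0834). With quantile normalization or limma at a pseudocount of 5, HK3 was the 1 higher member left. Tumors 1611 and 1614 were highest for HK3, as for neutrophil genes, and the part of myeloid cells in this rise was not tested.

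**Figure D4:**
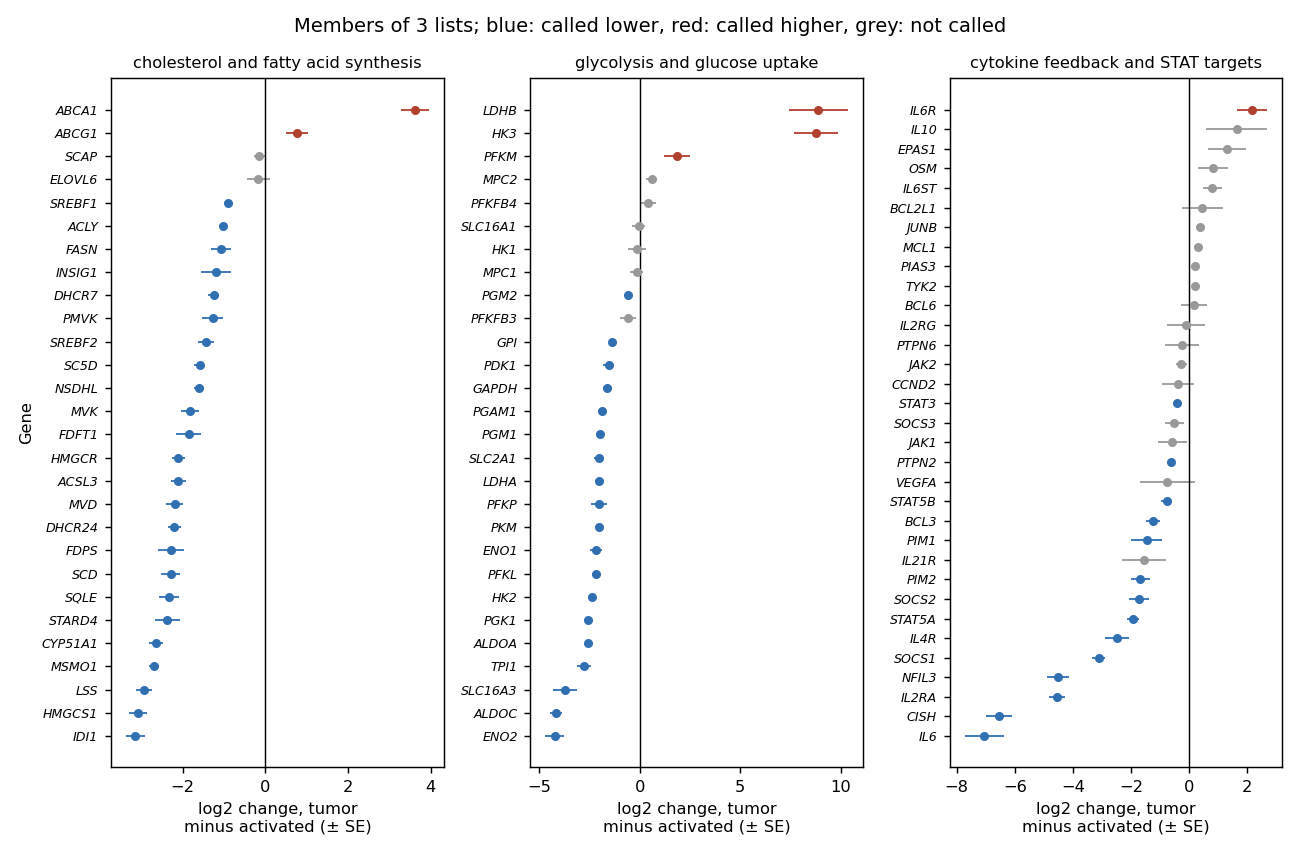
Log2 change (tumor minus activated) with its SE for tested members of 3 lists, with 1 gene per line. Blue members passed as lower, red as higher, grey did not pass. Nearly all sterol and glycolytic enzymes lie left of 0, ABCA1 and ABCG1 lie right of it, and the STAT list splits into a strongly lower group led by IL6 and CISH and a group near 0.

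Of 24 genes of the hypoxia response, 11 were lower (45.8%, against 16.0% of all genes) and 1 higher (4.2%, against 23.9%). The median was -0.80. The higher members numbered 3 without tumor 1610, 2 without 1615, and 3 without tumors 1610, 1612 and 1615, and 0 without 1611, 1613 or 1614 or with quantile normalization. The lower members numbered 6 with a 2-fold minimum. BNIP3, a mitochondrial protein of hypoxia and autophagy, was at 5.27, 11.8 and 16 CPM against 98.8, 171, 267, 178 and 233 CPM and changed by -3.96 ± 0.30 (adjusted p 5.4e-06). ADM, a secreted peptide, was at 0.126, 0.771 and 4.13 CPM against 17.2, 20.2, 26.6, 18.4 and 23.4 CPM and changed by -4.03 ± 0.71 (adjusted p 0.0012; -4.70 without tumor 1612). EGLN1, the oxygen sensor that marks HIF1A for removal, changed by -1.89 ± 0.40. HIF1A itself was lower in every tumor than in any activated library but did not pass (-0.71 ± 0.35, adjusted p 0.13), and neither did ERO1A, an oxidase of the endoplasmic reticulum (-0.83 ± 0.46).

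Few genes of oxidative phosphorylation, the mitochondrial counterpart, passed. Of 36, 4 were lower and 1 higher, a share below that of all genes, and the median was -0.07. Without tumors 1610, 1612 and 1615, 8 were higher, and without single tumors 3 (1610 or 1612) or 2 (1611, 1613 or 1615). Over all alternatives 0 to 8 were higher and 0 to 6 lower, with 0 lower at a 2-fold minimum. The lower members were the electron carrier CYCS (-0.73 ± 0.14), COX5A (-0.53 ± 0.10), UQCRB (-0.47 ± 0.11) and ATP5PB, whose call ended without tumor 1613 or activated library 1, 2 or 4 (adjusted p 0.0554 to 0.0762). The higher member was COX4I2 (8.40 ± 1.66; 7.19 without tumor 1616), which reached at most 0.083 CPM in activated cells. The ATP synthase subunits ATP5F1A and ATP5F1B did not pass (-0.24 ± 0.11 and -0.35 ± 0.13).

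MYC and its targets went in different directions. In the network of MYC partners and rivals, 5 of 11 genes were higher (45.5%, against 23.9% of all genes): MYC, MYCL, MXD1, MXD4 and MNT. None was lower (against 16.0%), and 1 was lower without tumors 1610, 1612 and 1615. MXD1 and MXD4 are repressors that compete with MYC for their partner MAX. MXD4 was at 116, 231 and 375 CPM in tumors and 53.7, 52.6, 57.8, 52.8 and 68.9 CPM in activated cells and rose by 1.92 ± 0.27 (adjusted p 0.00036). Its quiescent level was 209 to 227 CPM, so the activated libraries were below both other groups. MXD1 was at 28.4, 41.4 and 133 CPM against 9.76, 11.1, 11, 11 and 9.65 CPM and rose by 2.61 ± 0.45 (adjusted p 0.001). MYCL, a MYC relative, rose by 6.38 ± 0.77 from at most 0.249 CPM, and the call of MNT ended without activated library 1, 2, 3, 4 or 5 (adjusted p 0.0579 to 0.0642). MGA, another MAX partner, did not pass (-0.36 ± 0.20), nor did MLXIP (0.54 ± 0.21).

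Of 40 MYC targets and ribosome biogenesis genes, 28 were lower (70.0%, against 16.0% of all genes) and 0 higher (against 23.9%). The median log2 change was -0.54. The falls were mostly under 2-fold: with a 2-fold minimum, 3 were lower, and in the other alternatives 19 to 28 were lower and 0 higher. NCL, nucleolin, was at 991, 1245 and 1639 CPM in tumors and 2523, 2606, 2286, 2449 and 2311 CPM in activated cells and changed by -0.92 ± 0.15 (adjusted p 0.00071) without overlap. All 7 tumors were above the quiescent libraries, the highest of which was at 576 CPM. PNO1, an assembly factor of the small ribosomal subunit, was at 48.7, 69.8 and 97.4 CPM against 237, 233, 203, 222 and 200.4 CPM and changed by -1.68 ± 0.19 (adjusted p 8.4e-05). APEX1, a DNA repair nuclease, and HSPD1, a mitochondrial chaperone, each fell by about 2-fold (-1.07 ± 0.15 and -1.07 ± 0.19). The MYC targets ODC1, which makes polyamines, and EIF5A did not pass (-0.28 ± 0.23 and -0.31 ± 0.16).

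Of 44 cytosolic ribosomal protein genes, none was lower and 2 were higher (4.5%, against 23.9% of all genes), among them RPL37A (0.55 ± 0.14). The count of higher members depended on the scaling: DESeq2 size factors gave 17 higher, upper quartile factors 16 and quantile normalization 19. With a 2-fold minimum it was 0, and a filter at 5 CPM gave 7. Without tumor 1611 it was 12, without 1613 it was 8, and without 1614 or 1616 it was 4. RPLP0 and RPS3A did not pass (0.39 ± 0.21 and 0.40 ± 0.16). Nucleotide synthesis genes were lower in 14 of 29 (48.3%, against 16.0% of all genes) and higher in none (against 23.9%), with a median of -0.55. With a 2-fold minimum 4 were lower, and without tumors 1610, 1612 and 1615, 1 was higher. TYMS, thymidylate synthase, was at 16.8, 29.4 and 86.3 CPM against 121, 129.9, 86.4, 123 and 108 CPM and changed by -1.44 ± 0.36 (adjusted p 0.0082), and MTHFD2, a mitochondrial folate enzyme, changed by -1.67 ± 0.45. PFAS and ADSL, 2 enzymes of purine synthesis, changed by -1.01 ± 0.16 and -0.80 ± 0.13. RRM1 and NME2 did not pass (-0.38 ± 0.33 and 0.11 ± 0.31).

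Of 28 genes of the amino acid response and amino acid synthesis, 9 were lower (32.1%, against 16.0% of all genes) and 0 higher (against 23.9%). The median was -0.72, and without tumors 1610, 1612 and 1615, 7 were lower and 6 higher. Without tumor 1616, 18 were lower, and with quantile normalization 14. Without 1610 or 1615 alone, or with DESeq2, 1 was higher. TRIB3, a pseudokinase induced by ATF4, was at 0.375, 2.64 and 21.8 CPM in tumors and 165, 152, 179.6, 160.2 and 157 CPM in activated cells. It changed by -4.98 ± 0.82 (adjusted p 0.00077), and tumor 1616 was the highest of the 7 (-5.996 without tumor 1616). DDIT3, a stress transcription factor, and PSPH, the last enzyme of serine synthesis, changed by -0.99 ± 0.26 and -1.25 ± 0.24. SLC7A5 and SLC3A2, which form the leucine transporter, did not pass: SLC7A5 was at 88.5, 225 and 1393 CPM against 572 to 628 CPM, with tumor 1616 above and the other 6 below all activated libraries. The mean level of the list on the log2(CPM + 1) scale, minus its activated mean, was 0.89 in 1616 and -2.20, -1.99 and -2.05 in 1610, 1612 and 1615.

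Plasma cell genes rose, most of all in tumors 1616 and 1611. Of 30 tested, 19 were higher (63.3%, against 23.9% of all genes) and 1 was lower (3.3%, against 16.0%). The median log2 change was 3.12, and 24 were higher without tumors 1610, 1612 and 1615. With limma at a pseudocount of 5 the count of higher members was 14, and with quantile normalization it was 7. SDC1 (CD138), the surface proteoglycan used to identify plasma cells, was at 9.1, 71.4 and 414 CPM in tumors and 1.28, 0.664, 0.962, 1.62 and 1.25 CPM in activated cells. It rose by 6.70 ± 1.13 (adjusted p 0.00091; 5.96 without tumor 1616), with tumors 1610 and 1615 the lowest at 9.1 and 9.6 CPM. Its call ended with quantile normalization (adjusted p 0.136). Quiescent cells had 23.1 to 26.4 CPM, so tumors 1610 and 1615 were below all quiescent libraries, and so were all activated libraries.

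JCHAIN, the joining chain of IgA and IgM, was at 246, 1458 and 11446 CPM against 60.7, 39.7, 62, 75.7 and 89.5 CPM and rose by 5.40 ± 1.02 (adjusted p 0.0017; 4.34 without tumor 1616). Quiescent cells had 1191 to 1580 CPM of JCHAIN: 3 tumors were above this range, 3 below and 1 within it, and all 5 activated libraries were below it. IGKC, the kappa light chain, was at 3079, 30032 and 143977 CPM against 1561, 1443, 1535, 1653 and 1839.9 CPM and rose by 4.66 ± 1.02 (adjusted p 0.0037; 3.86 without tumor 1616). Against the 4 quiescent libraries, at 6502 to 8511 CPM, 4 tumors were above and 3 below. IGHA1, which stands for the mouse IgA heavy chain, was at 1302, 2021 and 124559 CPM against 30.8, 35.1, 8.46, 40.3 and 45.8 CPM (9.46 ± 1.80, adjusted p 0.0017; 7.52 without tumor 1611). Tumor 1611 held most of it, while tumor 1616, with the highest kappa level, was at 2021 CPM. IGHM, the IgM heavy chain, did not pass (-0.64 ± 0.48). Immunoglobulin genes are near-identical families, and the sources used here do not say how the authors' counting shared their reads.

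FKBP11, a folding enzyme of secretory cells, was at 6.52, 41.7 and 361 CPM against 1.32, 1.91, 1.68, 1.95 and 1.3 CPM (5.68 ± 1.11, adjusted p 0.002; 4.53 without tumor 1616; adjusted p 0.134 with quantile normalization). The lower member was TNFRSF13B (TACI), a receptor for BAFF and APRIL (-1.10 ± 0.21). The transcription factors that make a plasma cell did not pass, although their levels in single tumors were high. PRDM1 (BLIMP1) was at 5.52, 40.0 and 218 CPM against 16.3 to 21.2 CPM (1.91 ± 0.79, adjusted p 0.073). XBP1 was at 144, 612 and 4775 CPM against 503 to 522 CPM (1.39 ± 0.83, adjusted p 0.2), and IRF4 at 120.2, 249.8 and 1459 CPM against 174 to 215 CPM (1.16 ± 0.59, adjusted p 0.14). Tumors 1610 and 1615 were below every activated library for PRDM1, XBP1 and IRF4, and 1611 and 1616 were above every one. Without tumors 1610, 1612 and 1615 each of the 3 passed: PRDM1 at 2.62 ± 0.43 (adjusted p 0.0011), XBP1 at 2.12 ± 0.50 (adjusted p 0.0071) and IRF4 at 1.74 ± 0.48 (adjusted p 0.015). These tumors were left out for their low immunoglobulin shares in these same data. This fit therefore describes the other tumors and is no separate test of plasma cell genes.

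Among 52 genes for protein folding, folding stress and secretion, 13 were higher and 0 lower, with a median of 1.13, a share near the 23.9% of all genes. Without tumors 1610, 1612 and 1615, 40 were higher, without 1610 alone 22 and without 1615 alone 21, and over all alternatives the count ran from 3 (quantile normalization) to 40. Without tumor 1616, 3 were lower. DERL3, which draws misfolded proteins out of the endoplasmic reticulum, was at 19.1, 182 and 1438 CPM against 10.8, 16.4, 11.5, 12.7 and 12.1 CPM and rose by 4.80 ± 1.14 (adjusted p 0.006; 3.78 without tumor 1616). EDEM2, a mannosidase of the same route, rose by 2.77 ± 0.74 (1.97 without tumor 1616), and the stress sensor EIF2AK3 (PERK) by 1.48 ± 0.32. KDELR3, a retrieval receptor, rose by 7.21 ± 1.602 (5.87 without tumor 1616). The calls of DERL3 and KDELR3 ended with quantile normalization (adjusted p 0.0891 and 0.222). HSPA5 (BiP), the main chaperone, was at 626, 1412 and 9032 CPM against 1177 to 1346 CPM and did not pass (1.11 ± 0.65). HSP90B1, another chaperone, reached 24022 CPM in tumor 1616 against 1179 to 1289 CPM and did not pass either (2.15 ± 0.86).

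Of 36 mature B cell genes, 3 were higher (8.3%, against 23.9% of all genes), 1 lower (2.8%, against 16.0%) and 32 not called. The median was -0.23. Without tumors 1610, 1612 and 1615, 5 were lower. Without tumor 1610 alone 2 were lower, and without activated library 2 or 3 only 1 was higher. Over all alternatives 1 to 4 were higher and 0 to 5 lower. PAX5, which keeps B cell identity, was at 6.78, 770.4 and 1081 CPM in tumors and 1493, 1492, 1516, 1588 and 1589 CPM in activated cells. Every tumor was below every activated library, yet the tumors differed widely and the change did not pass (-1.46 ± 0.92, adjusted p 0.23). MS4A1 (CD20) showed the same spread, at 12.6, 742 and 1766 CPM against 1942 to 2006 CPM (-1.31 ± 0.89, adjusted p 0.26). In tumors 1611 and 1616, PAX5 was at 6.78 and 25.9 CPM and MS4A1 at 12.6 and 50.9 CPM. The lower member was POU2F2, whose call ended without tumor 1613, 1614 or 1616 or activated library 1, 2, 3, 4 or 5 (adjusted p 0.0516 to 0.0812). FCRLA, an intracellular Fc receptor-like protein of germinal center B cells, was higher in all tumors than in activated cells, at 63.9, 209 and 394 CPM against 25.1, 25.4, 22, 27.7 and 25.2 CPM (3.13 ± 0.47, adjusted p 0.00047). Quiescent cells had 454 to 516 CPM of FCRLA, more than any tumor, so the activated libraries were the lowest group. The other higher members were FCRL1, whose call ended without tumor 1610, 1612, 1613 or 1615 or activated library 1, 2, 3, 4 or 5 (adjusted p 0.0548 to 0.0784), and SPI1, whose call ended without activated library 2 or 3 (adjusted p 0.0508 to 0.0521).

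Antigen presentation genes were called in 4 of 20 (2 higher and 2 lower, both shares below those of all genes). CTSS (1.07 ± 0.21) and LGMN (3.42 ± 0.57), proteases of the antigen pathway, were higher, and TAPBP (-0.65 ± 0.12) and PSMB8 were lower. The call of PSMB8 ended without tumor 1610, 1611, 1612, 1613 or 1614 or activated library 1, 2, 4 or 5 (adjusted p 0.0551 to 0.112), which left 1 lower member, and without tumors 1610, 1612 and 1615 there were 5. No member was lower with a 2-fold minimum. CD74, the invariant chain, was at 149, 7536 and 9344 CPM in tumors and 6133 to 7099 CPM in activated cells and did not pass (-0.34 ± 0.82), and neither did HLA-DQB1, which names a mouse class II gene (-0.41 ± 0.73). Tumors 1611, 1614 and 1616 were at 149, 1337 and 310.2 CPM of CD74, and the other 4 were above all activated libraries.

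Genes of class switching and the germinal center, the site where B cells mutate and select their antibodies, were higher in 6 of 19 and lower in 4. These shares, 31.6% and 21.1%, stand beside 23.9% and 16.0% of all genes. Without tumors 1610, 1612 and 1615 or with limma at a pseudocount of 5, 3 were higher, and with quantile normalization 2. With a 2-fold minimum 2 were lower. S1PR2, a receptor that holds cells in the germinal center, was at 19, 46.9 and 199 CPM in tumors and 1.28, 2.7, 1.2, 2.03 and 1.3 CPM in activated cells and rose by 5.33 ± 0.67 (adjusted p 0.00019). GCSAM, a germinal center signaling protein, was at 0.865, 34.9 and 229.96 CPM against 0.0775, 0.125, 0.24, 0.208 and 0.048 CPM (8.68 ± 1.56, adjusted p 0.0013; 7.75 without tumor 1615). MYBL1, a transcription factor of dividing germinal center cells, rose by 3.59 ± 0.92 (2.83 without tumor 1615). The calls of GCSAM and MYBL1 ended with quantile normalization (adjusted p 0.169 and 0.318). Tumor 1615 was the highest for all 3 genes, and tumors 1611 and 1616 were the lowest for GCSAM. ID2, an inhibitor of E proteins, also rose (3.01 ± 0.58), with its highest values in 1614 and 1613, the tumors with the highest macrophage sums. Lower members were BATF, a partner of JUN needed for class switching (-2.88 ± 0.53), and the repair genes APEX1, UNG (-0.82 ± 0.19) and MSH6 (-0.83 ± 0.19). IRF8 and TCF3 did not pass (-0.91 ± 0.71 and 0.26 ± 0.18).

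Immediate early genes, switched on within minutes of a signal, were higher in 15 of 29 (51.7%, against 23.9% of all genes), with a median of 0.70. They were lower in 2 (6.9%, against 16.0%). The lower count was 1 without activated library 1, 2, 3 or 5 and 4 with quantile normalization. FOS was at 22.1, 144 and 503 CPM in tumors and 1.59, 1.49, 0.433, 0.83 and 1.2 CPM in activated cells and rose by 7.61 ± 1.08 (adjusted p 0.00037; 0.0724 with quantile normalization). FOSB was at 4.69, 20.8 and 81.8 CPM against 0.542, 0.498, 0.577, 0.415 and 0.24 CPM and rose by 6.004 ± 0.89 (adjusted p 0.00045). Quiescent cells had FOS at 21.9 to 51.5 CPM, and all activated libraries were below that range while 4 tumors were above it and 3 within it. RGS1 and RGS2, which dampen G protein signals, rose by 6.53 ± 0.99 and 5.36 ± 0.66. Quiescent cells had RGS1 at 1.31 to 3.14 CPM, below all tumors. They had RGS2 at 67.7 to 94.7 CPM, above the tumor median of 63.4 CPM on the common scale. The activated libraries were the lowest group for both genes. The lower members were FOSL1 (-2.47 ± 0.62) and EGR2, a zinc finger factor of antigen receptor signaling, at 0.973, 12 and 14.5 CPM against 71 to 87.4 CPM (-3.07 ± 0.55). JUN and JUND did not pass (0.06 ± 0.57 and 0.42 ± 0.34).

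Homing and adhesion genes were higher in 11 of 26 (42.3%, against 23.9% of all genes). They were lower in 2 (7.7%, against 16.0%), or in 4 with quantile normalization. CXCR4, the receptor that draws plasma cells to bone marrow, was at 152, 218 and 360.2 CPM in tumors and 40.4, 38.5, 48.4, 39.4 and 46.4 CPM in activated cells and rose by 2.49 ± 0.23 (adjusted p 2.3e-05). Quiescent cells had 224 to 295 CPM, so the activated libraries were the lowest group here too. VCAM1, an adhesion molecule of stroma and macrophages, was at 19.8, 347 and 1434 CPM against 0.194, 0.291, 0.0962, 0.332 and 0.336 CPM (10.73 ± 1.36, adjusted p 0.0002; 10.12 without tumor 1613; adjusted p 0.0779 with quantile normalization). ITGAE, an integrin of intraepithelial lymphocytes and dendritic cells, rose by 6.04 ± 0.88. Both were highest in tumor 1613, and the part of non-B cells in these rises was not tested. GPR183, which guides activated B cells to the follicle's edge, changed by -2.80 ± 0.80 (0.565, 42.8 and 73.9 CPM against 236 to 272 CPM). CD44 also fell (-1.33 ± 0.42), and its call ended without tumor 1613 (adjusted p 0.0519), which left GPR183 as 1 lower member. The integrin ITGAL did not pass (0.01 ± 0.49): it was at 1390.2 CPM in tumor 1616 and at 204 to 321 CPM in the other 6, against 389.7 to 423 CPM.

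In the mitosis list 6 of 39 genes were higher and 0 lower (15.4%, against 23.9% of all genes), with a median of 0.40. Without activated library 3 or 5, 3 were higher, and without tumor 1615, 1 was lower. MKI67, a marker of dividing cells, was at 366, 490.03 and 1159 CPM in tumors and 329.5, 379.9, 308, 361 and 269 CPM in activated cells. The groups overlapped, and the rise (0.89 ± 0.28, adjusted p 0.025) ended without activated library 1, 3 or 5 (adjusted p 0.0538 to 0.0647). Quiescent cells had 24 to 26.9 CPM. TOP2A and CCNA2 did not pass (-0.29 ± 0.31 and 0.52 ± 0.37).

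Of 43 DNA replication genes, 7 were lower (16.3%, against 16.0% of all genes) and 1 higher (2.3%, against 23.9%). The lower members numbered 13 without tumor 1611, 12 without 1615, 11 without 1616, 3 without 1613 and 4 without activated library 1, 2, 3 or 4, and 2 were higher without 1616 or with DESeq2. With a 2-fold minimum 3 were lower, with upper quartile factors 4, and with limma at a pseudocount of 1 or with no filter on low counts 11. POLE2, a subunit of the leading-strand polymerase, was at 6.05, 12.5 and 23 CPM against 54, 58.1, 55.2, 53.6 and 52.8 CPM and changed by -1.90 ± 0.27 (adjusted p 0.00037), and POLE, its catalytic partner, by -0.997 ± 0.26. MCM3 of the replicative helicase (-1.04 ± 0.32) and its helper GINS2 (-1.10 ± 0.38) were also lower, but the call of MCM3 ended without tumor 1613 (adjusted p 0.0571), and that of GINS2 ended without tumor 1610, 1612 or 1613 or activated library 1, 2, 3, 4 or 5 (adjusted p 0.0577 to 0.0819). MCM5 and MCM6 did not pass (-0.85 ± 0.36 and -0.69 ± 0.33). The higher member was E2F2, a transcription factor of S phase, at 66.9, 159 and 220.3 CPM against 53 to 64.5 CPM (1.47 ± 0.24, adjusted p 0.00071).

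Among cyclins, CDKs and CDK inhibitors, 4 of 21 were higher (CCND1, CDKN2C, CDKN2D and E2F2) and 3 lower (CDK4, E2F3 and MYBL2), or 19.0% and 14.3%, both below the shares of all genes (23.9% and 16.0%). Without tumor 1613 or activated library 1, 2 or 4, or with upper quartile factors, 1 was lower, and with a 2-fold minimum 0. CCND1, the cyclin D1 gene often activated in human myeloma, was at 0.432, 5.98 and 8.39 CPM in tumors and 0, 0.208, 0.0481, 0.0415 and 0.576 CPM in activated cells (4.87 ± 1.01, adjusted p 0.0027; 6.01 without activated library 5; adjusted p 0.0682 with quantile normalization). Tumor 1616 was the lowest and overlapped with activated library 5, and quiescent cells had 2.1 to 6.35 CPM. CCND2 and CCND3, the cyclins D of normal B cells, did not pass (-0.39 ± 0.55 and 0.21 ± 0.29), and CCND2 ran from 94.1 CPM in tumor 1615 to 1233 CPM in 1616. CDKN2C, which inhibits CDK4 and CDK6, rose by 1.30 ± 0.21. The calls of CDK4, CDKN2D and MYBL2 each ended when any 1 of several libraries was left out. CDK4 ended without tumor 1613 or activated library 1, 2 or 4 (adjusted p 0.053 to 0.0681). CDKN2D ended without activated library 1, 2, 3, 4 or 5 (adjusted p 0.0523 to 0.0733). MYBL2 ended without tumor 1610, 1612 or 1613 or activated library 1, 2, 3 or 4 (adjusted p 0.0569 to 0.0867).

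Survival genes of the BCL2 family and death pathway were lower in 6 of 20 (30.0%, against 16.0% of all genes). The 1 higher member (5.0%, against 23.9%) was BAD (0.51 ± 0.15). The higher members numbered 2 without tumor 1611 or 1615 and 4 without tumors 1610, 1612 and 1615, with a range of 0 to 4 over all alternatives. The call of BAD ended with quantile normalization and with a 2-fold minimum. BCL2A1 had the greatest fall of the 6, followed by BIRC3, then CFLAR, an inhibitor of caspase 8, at 103, 126 and 218 CPM against 312 to 318 CPM (-1.13 ± 0.17, adjusted p 0.00048), and BID, which links death receptors to mitochondria (-1.01 ± 0.26). BCL2 was lower in every tumor, at 5.9, 60.5 and 118 CPM against 134 to 154 CPM, but did not pass (-1.20 ± 0.59, adjusted p 0.12). BCL2L11 (BIM), the death activator, did not pass (0.99 ± 0.60) and was highest in tumors 1616 and 1611, at 732 and 519 CPM against 113 to 155 CPM.

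Chromatin and polycomb genes were lower in 8 of 33 and higher in 3, and 15 were lower without tumors 1610, 1612 and 1615. The shares, 24.2% lower and 9.1% higher, stand beside 16.0% and 23.9% of all genes. With a 2-fold minimum 2 were lower and 1 higher. EZH2, the histone methyltransferase of polycomb, was at 17.6, 63.2 and 120.05 CPM in tumors and 206, 227, 158, 193 and 177 CPM in activated cells and changed by -1.52 ± 0.34 (adjusted p 0.0042). HDAC9, a class IIa histone deacetylase, was at 9.61, 26.5 and 58.4 CPM against 231 to 264 CPM and changed by -2.92 ± 0.45 (adjusted p 0.00055), and KDM6B, a demethylase that opposes EZH2, by -0.72 ± 0.14. HDAC5 and HDAC11, other deacetylases, rose by 0.91 ± 0.18 and 1.84 ± 0.31, and CBX8 of polycomb was the remaining higher member (0.77 ± 0.22). The calls of HDAC11 and CBX8 ended with quantile normalization (adjusted p 0.198 and 0.599). DNMT3A was lower (-0.86 ± 0.30), and its call ended without tumor 1611, 1613 or 1614 or activated library 1, 2, 3, 4 or 5 (adjusted p 0.0659 to 0.0862). ARID1A and KMT2D did not pass (-0.23 ± 0.21 and 0.18 ± 0.25).

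Interferon response genes were higher in 5 of 25 (RSAD2, IFIT3, OAS2, IFI44 and IRF1), a share below the 23.9% of all genes, and lower in 1. With quantile normalization IRF1 was the 1 higher member, and the adjusted p of RSAD2 and IFIT3 was 0.246 and 0.189. RSAD2, an antiviral enzyme, was at 5.16, 18.8 and 423 CPM against 3.22, 2.74, 1.64, 3.2 and 3.22 CPM (5.23 ± 1.25, adjusted p 0.006; 4.31 without tumor 1611), and IFIT3 at 6.21, 15.8 and 176 CPM against 1.54 to 3.11 CPM (4.11 ± 0.98; 2.93 without tumor 1614). Tumors 1611 and 1614 were far above the other 5 for both. The call of OAS2 ended without activated library 1, 3 or 4 (adjusted p 0.0505 to 0.0534), and that of IFI44 ended without tumor 1611 or 1614 or activated library 1, 2, 3, 4 or 5 (adjusted p 0.0689 to 0.0985). OASL, an antiviral protein of the same family, was lower (-2.21 ± 0.61), and 11 genes of the list were higher and 0 lower without tumors 1610, 1612 and 1615. Without activated library 1, 3 or 4 or with limma at a pseudocount of 1 or 5, 3 were higher. BST2 and TRIM25 did not pass (1.08 ± 0.59 and 0.20 ± 0.15).

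**Figure D5:**
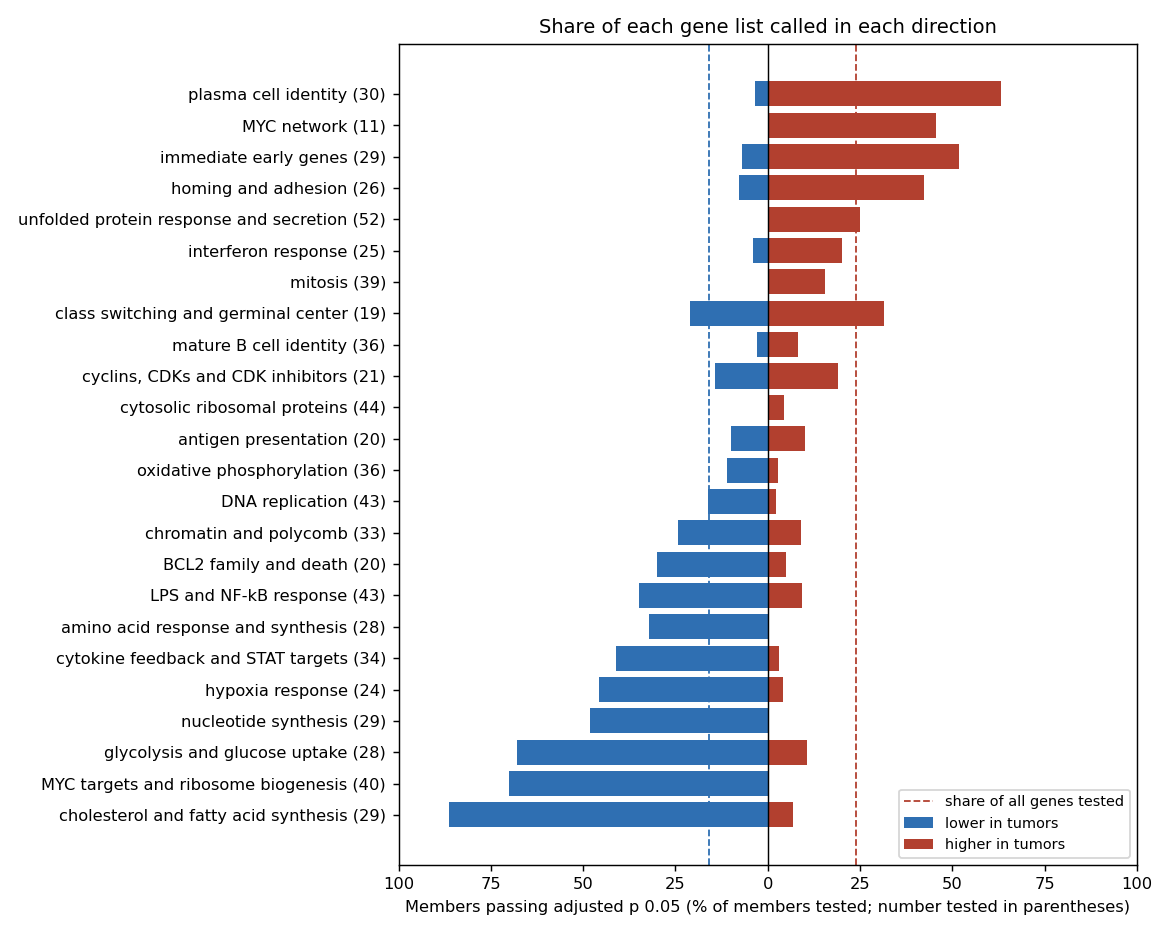
Bars give the share of each list's tested members that passed an adjusted p of 0.05 as higher (right) or lower (left) in tumors, and dashed lines give the same shares over all genes tested, 23.9% and 16.0%. Cholesterol synthesis, MYC targets and glycolysis extend furthest to the left and plasma cell identity furthest to the right. Secretion, interferon and mitosis lists lie near or inside the dashed line for higher genes.

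The 8 genes with the greatest rises by the naming rule were at or near 0 in the activated libraries. KEL, a red cell surface protein, was at 4.19, 17.2 and 153 CPM in tumors and at 0 in all 5 activated libraries, at least 1673-fold higher with a floor of 3 counts over the activated group (without tumor 1611 its fitted log2 change, which is no bound, fell from 12.72 to 11.97). CLEC6A, a lectin of myeloid cells, was at 1.95, 18.1 and 46.7 CPM against 0 in all 5 (at least 875-fold). SLC45A3 was at 2.7, 23 and 54.4 CPM against 0 (at least 876-fold), and LRG1 at 1.43, 10.3 and 55 CPM against 0 (at least 849-fold). The naming rule took only genes whose groups do not overlap, so each had to be above 0 in all 7 tumors.

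SERPING1, the inhibitor of complement C1, was at 0.511, 17 and 4525 CPM in tumors and 0.0387, 0.415, 0.0481, 0.0415 and 0.192 CPM in activated cells (12.16 ± 2.88, adjusted p 0.0058), and its value rested on 1 library: it was 8.71 without tumor 1616 and 13.03 without activated library 2. CD163, a scavenger receptor of macrophages, had 1 count in all activated libraries together and 1.41, 23.8 and 201 CPM in tumors, a ratio with a counting interval of 1111 to 244582. EPHA8, a receptor tyrosine kinase, was at 1.02, 26.1 and 217 CPM against 2 counts in all (counting interval of the ratio 981 to 29283). CA1, a carbonic anhydrase of red cells, was at 3.63, 37.1 and 504 CPM against at most 0.083 CPM (11.80 ± 2.08; 11.13 without tumor 1611). With quantile normalization the calls of these 4 genes ended (adjusted p 0.393, 0.0758, 0.184 and 0.224).

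C1QA, a subunit of complement C1q made by macrophages, was at 20.5, 145 and 373 CPM in tumors and 0, 0.208, 0.0481, 0.083 and 0.144 CPM in activated cells, and rose by 10.59 ± 1.20 (adjusted p 8.9e-05). LYZ, lysozyme, was at 70.4, 320.2 and 2132 CPM against 0.62, 0.498, 0.144, 0.996 and 0.24 CPM (10.46 ± 1.16, adjusted p 7.7e-05). In quiescent cells C1QA was at 1.71 to 23.4 CPM and LYZ at 16.3 to 152 CPM, so 6 of 7 tumors were above all quiescent libraries and all activated libraries were below them for both genes. HBA1, an alpha globin, was at 85.2, 444 and 2125 CPM against 1.78, 0.208, 0, 0.249 and 0.192 CPM (10.44 ± 1.45, adjusted p 0.00032; 11.996 without activated library 1) and at 6.2 to 14.2 CPM in quiescent cells. S100A8, a neutrophil granule protein, was at 2.96, 98.3 and 963 CPM against 0.194, 0.125, 0, 0.083 and 0.096 CPM (11.15 ± 1.79; 10.27 without tumor 1611). Tumors 1611 and 1614 had the highest levels of HBA1 and S100A8. The calls of C1QA and S100A8 ended with quantile normalization (adjusted p 0.0585 and 0.238).

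Of 15 T cell markers, 11 were higher (7 without tumors 1610, 1612 and 1615), while CD2 (1.58 ± 0.75) and LCK (-0.08 ± 0.41) did not pass. The NK cell count was 2 without those 3 tumors. Counts of higher markers in the main fit stand beside the 23.9% of all genes that were higher. Markers near 0 in activated cells met the filter only through the tumors, so for them this is no test. Of the markers with values, 6 of 10 platelet and 3 of 7 mast cell genes were tested. Stromal and endothelial markers were higher in 12 of 15 (6 without the 3), with FN1 (fibronectin) at 28.9, 65.1 and 522 CPM against 8.29, 6.68, 4.86, 5.56 and 7.97 CPM (4.68 ± 0.92; 4.09 without tumor 1614). Of these 15 genes, 14 had positive changes. VIM (0.93) and PDGFRB (-0.96) were among the 3 that did not pass. The summed stromal level overlapped, at 123 to 1033 CPM in tumors against 133 to 169 CPM in activated cells. Dendritic cell markers were higher in 7 of 12, with ITGAX (CD11c) at 4.76, 38.3 and 188 CPM against 0 to 0.208 CPM (8.93 ± 1.21; 8.26 without tumor 1614). Platelet genes were higher in 5 of 6 (PPBP, GP9, ITGA2B, TUBB1 and VWF; 1 without the 3) and mast cell genes in 3 of 3 (KIT, GATA2 and HDC). The remaining platelet gene, ITGB3, went the other way and did not pass (-0.84). The summed platelet level did not separate the groups, at 24.6, 92.3 and 124.9 CPM in tumors against 86.0 to 93.9 CPM in activated cells. Of the 6 B cell markers, 0 were called higher or lower, and 2 were lower without tumors 1610, 1612 and 1615. With quantile normalization, 7 stromal and endothelial, 3 dendritic cell, 3 platelet and 1 mast cell genes were higher, and FN1, ITGAX, TUBB1, VWF, GATA2 and HDC were among those no longer called. Over all alternatives the higher members ran from 1 to 17 for T cells, 2 to 10 for NK cells, 2 to 16 for stroma, 3 to 9 for dendritic cells, 1 to 8 for platelets and 1 to 4 for mast cells, in part because a filter at 5 CPM tested fewer genes and no filter tested more. At most 1 T cell, 1 dendritic cell and 1 stromal gene was lower in any of them.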

How the data were processed

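Bulk RNA of all 12 libraries was prepared with a stranded total RNA kit, per the labels' protocols. The authors deposited 1 table for the whole series. Its name says TPM, but its library totals differ and far exceed the fixed total of TPM, so the deposited values were treated as estimated counts. Scaling for transcript length is not stated. The submitters' processing notes name Trim Galore 0.4.0, DESeq2 and the build GRCm39. How reads were quantified, and how human symbols came to stand for mouse genes, is not stated there or in the labels, so values of gene families are uncertain. The table held 61651 entries, of which 5463 had no name and 0% of the counts. Entries that shared all their values were joined, which gave 15881 profiles. Of these, 8 Y-linked ones were left out, and counts were rounded to whole numbers.

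Genes with at least 1 CPM in at least 4 of 12 libraries were tested with edgeR 4.0.16 (quasi-likelihood, TMM factors, R 4.3.3) over these 12 libraries alone, with a Benjamini-Hochberg threshold of 0.05. Quiescent libraries entered the levels printed for them, 1 alternative and the CISH pattern, not the test. A gene at 0 in all activated libraries was given a floor of 3 counts over the group, and intervals are at 95% and cover counting error only. The procedure was run on simulated data with the same dispersion for every gene and library. The unequal spread of tumors and activated libraries was not simulated, so that run cannot show how the test behaves under it. Alternatives used DESeq2 1.42.0, limma 3.58.1, other scalings, filters and thresholds, and left out libraries. Tables and figures were made with Python 3.11.15, pandas 2.3.3, scipy 1.17.1 and matplotlib 3.10.9.

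The members and lists were chosen with earlier results of these data known. Named were 25 fixed genes, the 8 greatest rises and 8 greatest falls among called genes whose groups did not overlap (mean of at least 20 CPM in the higher group), and per list up to 4 such members in each direction (at least 10 CPM) and the 2 with the highest mean that did not pass. Not all of them are described, and some are not reported here. The 6 genes most like CISH had the highest Pearson correlations at a mean of at least 10 CPM. Further genes were named after their values were seen, where a list had 5 or fewer called members: FCRL1, SPI1, IL6R, LTB, GADD45B, FOSL1, MYCL, MNT, LDHB, PFKM, ATP5PB, ABCG1, CDKN2D, CDK4, E2F3, MYBL2, PSMB8, OAS2, IFI44, CBX8, PPBP, GP9, TUBB1, VWF, GATA2 and HDC. Libraries differed by more than counting noise, so none was counted as a duplicate.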

Additional observations from a re-analysis of the deposited data

Results flagged for a closer look

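For 27 of the genes named, 1 library lay far from the others of its group on the log2(CPM + 1) scale, by the gap to its nearest neighbour over the range of the group (above Dixon's 95% critical value). Chance alone picks out about 1 in 20 groups. In tumor 1611, these genes were BNIP3 (5.28 CPM), PFAS (102 CPM) and PLEK (75.2 CPM). In tumor 1614, this gene was IL1B (178 CPM). In tumor 1616, these genes were E2F2 (66.9 CPM), EGLN1 (5.73 CPM), ERO1A (354 CPM), ITGAL (1390 CPM), PDGFRB (0.108 CPM), POLE (19.1 CPM), PSPH (69.7 CPM) and RPLP0 (4993 CPM).

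In activated library 1, these genes were BIRC3 (403 CPM), HBA1 (1.78 CPM), HK2 (114 CPM) and MZB1 (372 CPM). In activated library 2, this gene was CD163 (0.0415 CPM). In activated library 3, these genes were BST2 (44.3 CPM), CCR2 (0.0481 CPM), IGHA1 (8.46 CPM), RSAD2 (1.64 CPM) and SIGLEC1 (0.0481 CPM). In activated library 4, these genes were GINS2 (35.7 CPM) and KIT (1.58 CPM). In activated library 5, these genes were CD69 (146 CPM), MCM3 (309 CPM) and TCF3 (239.7 CPM). These are values with no explanation tested.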

How the results depend on the processing

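Each result was recomputed under 23 alternatives. Of 217 genes followed, 157 were called, 81 of these calls held under every alternative, and 21 ended when 1 library was left out. Another 30 genes passed only in an alternative. The number of genes higher in tumors, 2634, was 1066 with quantile normalization and 1742 with limma at a pseudocount of 5. It ran from 2172 to 2750 when 1 library was left out. The number lower, 1764, was 442 with a 2-fold minimum and ran from 1269 to 2093 without 1 library. ITGAL, at a log2 change of 0.01, was at -0.62 with DESeq2 and at -0.74 without the spleen tumor of mouse 1616 (range without 1 library -0.74 to 0.16), and the cause was not tested. No paired analysis was possible because the 2 groups share no replicate numbers. Depth was 13328866 counts or more per library, so genes near 0 in activated cells are known only to within a few counts.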
